A study of Mus musculus with 12 samples.

Results

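Pla2g12a, a secreted phospholipase A2, read 3.10-fold higher in perigonadal fat of mice lacking Glut4 in adipose tissue than in their controls, and this account follows it together with related genes of phospholipid turnover. A list of 6 genes was used: Pla2g12a, Pla2g4a, Pla2g5, Pla2g2d, Pla2g7 and Lpgat1. Every probe set annotated to a single one of them was taken, which gave 8 probe sets for 5 genes, out of 12422 probe sets on the array, of which 10833 carry 1 symbol and together name 8251 genes. Pla2g2d had no such probe set and was not analysed here. The genes were chosen by measured values of these same arrays: Pla2g12a had been called in the knockout comparison, and which values led to the other genes is not recorded, so that Lpgat1, which is not a phospholipase, may rest on either comparison. All members in the knockout comparison, and Lpgat1 in both, are therefore given as a description, with no p; for Pla2g12a the knockout call that led to its choice is described too, and supports nothing. The overexpressor comparison was tested for Pla2g12a, Pla2g4a and Pla2g7. Since the values that led to Pla2g4a and Pla2g7 are not recorded, their p there may share in the choice, and no call rests on them.

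The 12 mice were female, 6 months old and fed ad libitum, with 1 array each and 3 mice in each of 4 groups. Overexpressors carried a Glut4 transgene driven by the aP2 promoter and were set against FVB littermates without it. Knockouts, labelled adipose-Glut4-/-, were set against mice that carry aP2-Cre as the controls of that line; both groups of that line are labelled C57B6/FVB/SV129 mix. The aP2 promoter, that of Fabp4, is active in adipocytes and also in macrophages, which limits both lines as adipocyte models. The labels do not say which Glut4 exons are deleted, nor whether the Cre controls also carry a floxed allele. Groups were taken from the sample titles, because the genotype field repeats the mutant's value for the controls. Fat genes were bright on all arrays: 8 adipocyte markers, Adipoq and Fabp4 among them, had a mean log2 value between 11.17 and 11.70. Array medians ran from an intensity of 186 on knockout control 3 and 188 on overexpressor 1 to 219. Values are deposited intensities, and log2 changes are differences of mean log2(intensity + 36.9), a constant that damps the change of dim probe sets. No level is compared between the lines, whose arrays bottom out at different floors (21.9 and 22.3).

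Phospholipases A2 cut the fatty acid from the middle position of a phospholipid, leaving a lysophospholipid. The cytosolic enzymes release arachidonate inside cells, the feedstock of prostaglandins and leukotrienes, while secreted ones act outside the cell on membranes, lipoproteins and bacteria. Lysophospholipids are then re-acylated by acyltransferases, broken down further, or bind receptors of their own. In fat, prostaglandin E2 made from released arachidonate restrains lipolysis through the receptor encoded by Ptger3.

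The secreted enzymes come first. Pla2g12a encodes group XIIA phospholipase A2, and its brighter probe set (104343_f_at) read 533, 559 and 836 in the 3 knockouts and 222, 256 and 144 in their controls. The lowest knockout thus lay above the highest control by more than the controls' whole range. The means were 643 ± 168 and 207 ± 57.7 (SD, n = 3 arrays each), a log2 change of 1.48 (SE 0.23, 95% interval 0.98 to 1.98; neither this nor other intervals here is adjusted for the choice of genes). Of 7454 tested probe sets, 7 had a higher change, a rank that follows from choosing the gene on this comparison. In whole tissue, a change in the share of a cell type and a change in RNA per cell cannot be told apart.

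Pla2g12a was the 1 member called among 5 tested member probe sets in the knockout (limma, adjusted p below 0.05), where 0.121% of all tested probe sets were called; since the choice of genes used this comparison, nothing is read from that count. The call was lost on leaving out any of 5 single arrays and held without any of the other 7. Among the knockouts these were mouse 2 (log2 change 1.56 without it) and mouse 3 (1.28). Among the controls they were mouse 1 (1.54) and mouse 3 (1.28) of the knockout's group and mouse 2 of the overexpressor's group (1.48). It also ended on the knockout line's own 6 arrays, without a filter on dim probe sets and with the replicate number as a block, all at a log2 change of 1.48. With that block 0 of all tested probe sets were called in the knockout.

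The second Pla2g12a probe set (104342_i_at) moved less. It read 66.5, 85.2 and 108 in knockouts and 54.3, 71.6 and 41.3 in controls, so that knockout 1 lay below knockout control 2 and the groups overlapped. Its log2 change was 0.41, or 0.64 with a constant of 1 in place of 36.9. It was too dim on average to be tested, with a mean over 12 arrays of 108. The platform annotation gives the same sequence record for both probe sets. In the array maker's naming, the ending _f marks probes that may match a family of similar sequences and _i a set with fewer unique probes than usual, so neither reads the gene with full assurance.

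In the overexpressor line Pla2g12a did not separate. The brighter probe set read 197, 373 and 330 in overexpressors and 297, 276 and 276 in controls, with overexpressor 1 below and the other two above all controls. The log2 change was 0.037 (95% interval -0.46 to 0.54, limma adjusted p = 0.988), and it was -0.12 without overexpressor 2, -0.046 without overexpressor 3 and 0.28 without overexpressor 1. The dim probe set read 120, 174 and 179 against 117, 118 and 155 and was at 0.21, again with overlapping groups. No member was called in this comparison, where limma called 0.0805% of tested probe sets (0.0268% higher and 0.0537% lower). Among Pla2g12a, Pla2g4a and Pla2g7, the smallest unadjusted limma p was 0.403, for Pla2g7. Lpgat1, whose brighter probe set was at -0.51 here, is left out of that comparison of p because of how it may have been chosen.

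**Figure D1:**
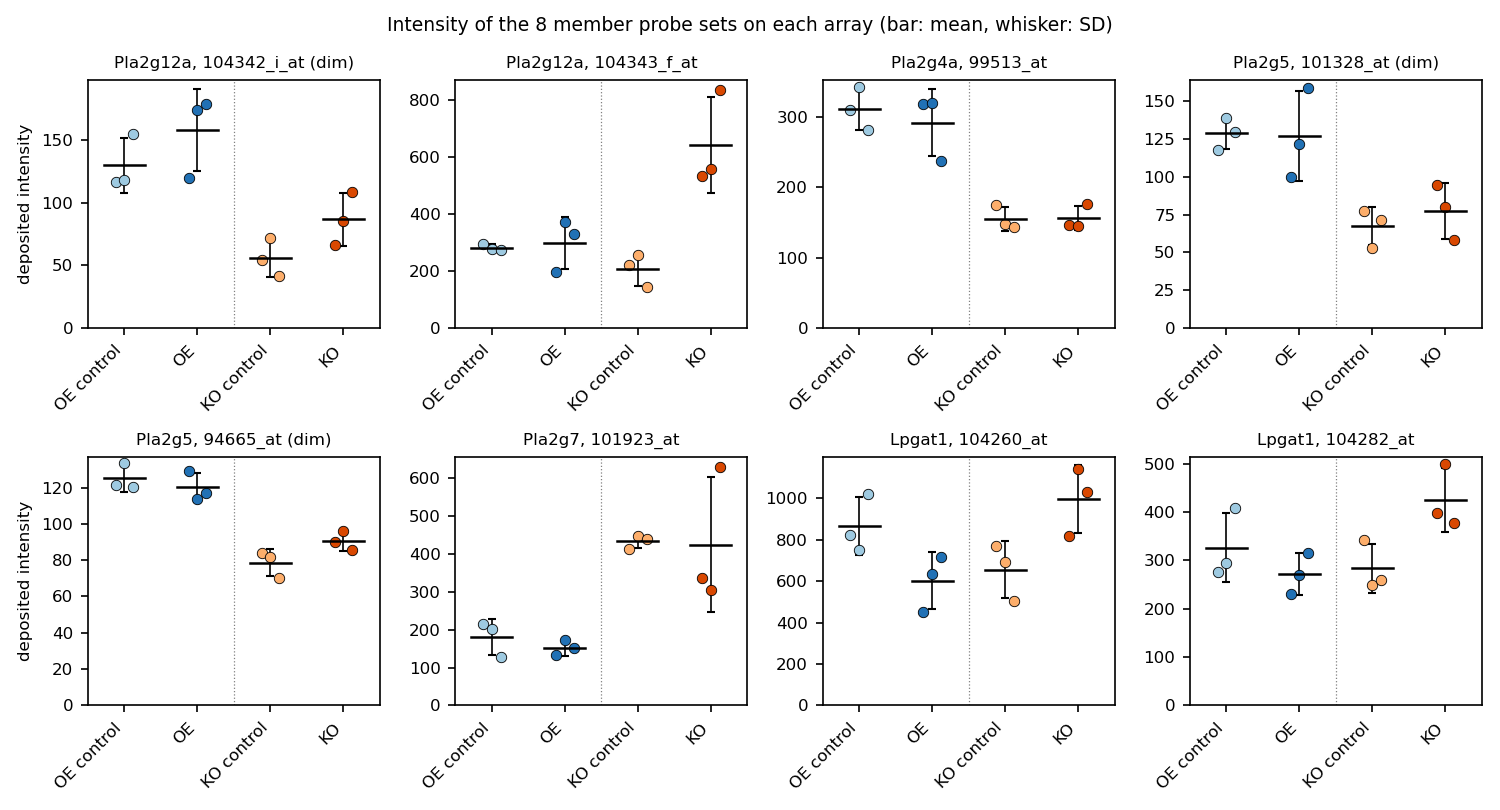
Deposited intensity (vertical axis, linear from 0) of the 8 member probe sets on each of 12 arrays, with the mean (bar) and SD (whisker) of each group of 3; OE is overexpressor, KO is knockout, and the dotted line parts the lines, whose levels are not compared. For Pla2g12a 104343_f_at all 3 knockouts, at 533 to 836, lie above all 3 of their controls, at 144 to 256.

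Pla2g5 encodes group V phospholipase A2, a secreted enzyme of macrophages and other cells. Both its probe sets were dim, with means over 12 arrays of 100.1 and 104, and neither was tested. The first (101328_at) read 94.5, 80.2 and 57.9 in knockouts and 77.5, 53.1 and 71.3 in controls, a log2 change of 0.13. The second (94665_at) read 90.0, 96.2 and 85.4 against 84.1, 81.7 and 70.1, a change of 0.14 with groups that did not overlap, the lowest knockout lying just above the highest control. In overexpressors the probe sets were at -0.032 and -0.045 with overlapping groups.

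Pla2g7 encodes the lipoprotein-bound platelet-activating factor acetylhydrolase, which macrophages secrete and which also cuts oxidised phospholipids. Knockouts read 337, 306 and 630 and their controls 413, 449 and 439. The controls thus lay close together between knockouts 1 and 2 below and knockout 3 above, at a log2 change of -0.095 (95% interval -0.58 to 0.39). Leaving out single arrays moved it from -0.39, without knockout 3, to 0.086. Overexpressors read 132, 172 and 151 against 216, 202 and 127 in controls (-0.20, 95% interval -0.68 to 0.29, limma adjusted p = 0.930), with overlapping groups.

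The order of the macrophage means within a group of 3 arrays matched that of Pla2g7 in places and differed in others. The mean log2 value of 15 macrophage markers ran from 9.18 to 9.28 in overexpressors and from 9.05 to 9.83 in their controls, and from 9.03 to 9.38 in knockouts and 8.94 to 9.40 in theirs. Overexpressor control 3 held the lowest macrophage value and the lowest Pla2g7 of its group, and overexpressor control 1 the highest of both. Knockout 3 held the highest macrophage value (9.38) and the highest Pla2g7 among the knockouts. In the knockout controls, whose Pla2g7 values lay close together, the order was turned. Control 1 held the highest macrophage value (9.40) and the lowest Pla2g7 (413). Control 2 of that group held the lowest macrophage value (8.94) and the highest Pla2g7 (449). Overexpressor 2 held the highest Pla2g7 of its group (172) at a macrophage value of 9.18, the group's lower end, which overexpressor 1 shared. In the overexpressors 13 of 15 markers were lower (median -0.27) and in the knockouts 10 of 15 were higher (median 0.059), with 0 called in either by limma and 0 at an unadjusted p under 0.05. Over all 7454 tested probe sets 5240 were lower in the overexpressor and 4693 higher in the knockout. The part of macrophage genes in the Pla2g7 values was not tested.

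Inside the cell, Pla2g4a encodes the calcium-dependent cytosolic phospholipase A2 that prefers arachidonate. It read 147, 145 and 176 in knockouts and 174, 148 and 143 in controls, so that the group ranges nearly coincided. The log2 change was 0.0059 with the narrowest interval of the tested members (-0.27 to 0.28). Overexpressors read 317, 320 and 236 against 309, 342 and 281 in controls, with overexpressor 3 lowest (-0.091, 95% interval -0.37 to 0.19, limma adjusted p = 0.935; 0.035 without overexpressor 3).

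Lpgat1 encodes an acyltransferase of the endoplasmic reticulum that puts a fatty acid back onto lysophosphatidylglycerol and other lysophospholipids. Its brighter probe set (104260_at) read 817, 1143 and 1033 in knockouts and 772, 693 and 504 in controls, so every knockout lay above every control. The change was 0.59 (SE 0.20, 95% interval 0.15 to 1.02), with means of 998 ± 166 and 656 ± 138. In the overexpressor line the order was turned: 450, 636 and 719 in overexpressors and 824, 752 and 1021 in controls, again without overlap. There the change was -0.51 (SE 0.20, 95% interval -0.95 to -0.074), with means of 602 ± 137 and 866 ± 139. Lpgat1 may have been chosen on these same values. The intervals of both lines are not adjusted for that choice, so they serve as a description and not as a test. Leaving out single arrays kept both directions, with values from 0.42 to 0.72 in the knockout and from -0.65 to -0.33 in the overexpressor.

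The other Lpgat1 probe set (104282_at) gave the same direction in both lines. Knockouts read 397, 500 and 377 against 342, 248 and 260 in controls, without overlap (0.53, SE 0.17). Overexpressors read 230, 270 and 316 against 277, 294 and 408, with overlapping groups (-0.23, SE 0.17; -0.071 without overexpressor control 3). For both probe sets the lowest overexpressor was overexpressor 1, the dimmest array of that line. The dimmest array of the knockout line, knockout control 3, was lowest for 104260_at and for Pla2g12a. With each array's median subtracted, 104260_at was at 0.55 in the knockout and -0.45 in the overexpressor, and Pla2g12a 104343_f_at at 1.44 in the knockout.

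Among the 5 tested member probe sets, the knockout groups did not overlap for 3, all higher, where 7.51% of all tested probe sets lay apart in either direction (5.62% higher and 1.89% lower); this comparison was used in choosing the genes, so nothing is read from it. The overexpressor groups lay apart for 1, Lpgat1 104260_at, against 8.77% of all tested probe sets (2.29% higher and 6.48% lower). Lying apart in opposite directions in both lines, as this probe set did, held for 0.631% of tested probe sets; since Lpgat1 may have been chosen on either comparison, nothing is read from this share or from the overexpressor count.

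**Figure D2:**
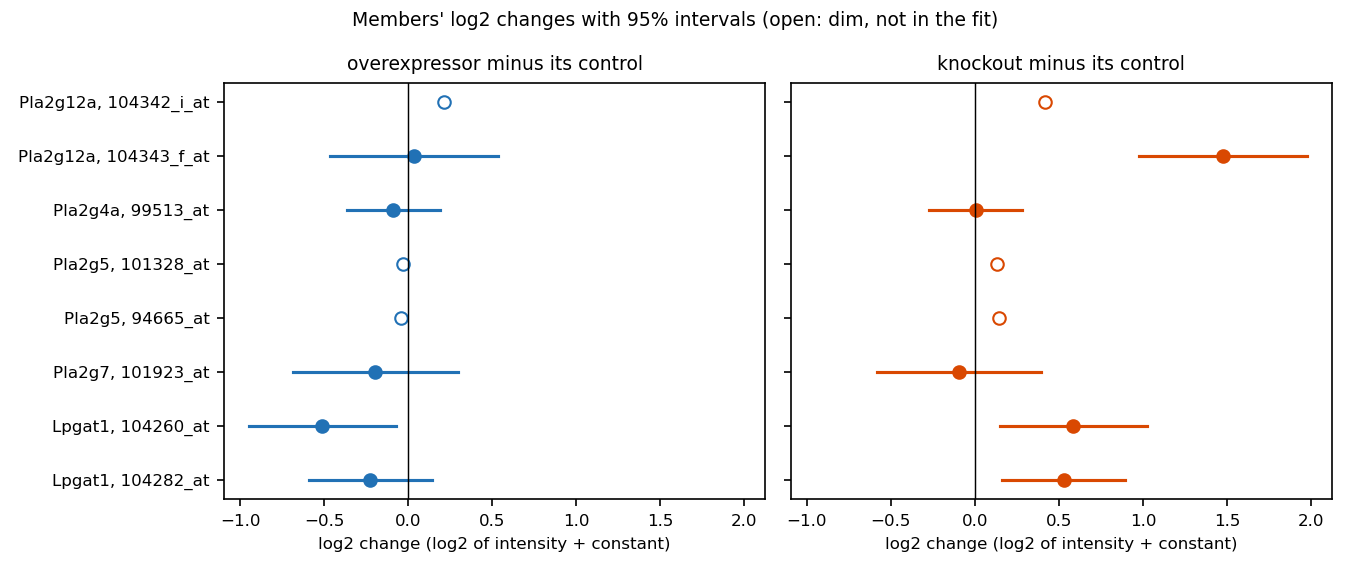
Log2 change (horizontal axis) of each member probe set in the overexpressor (left) and the knockout (right), each against its own control. Bars are 95% intervals of the limma fit of 12 arrays, not adjusted for the choice of genes. Open circles are dim probe sets outside that fit. Pla2g12a 104343_f_at stands at 1.48 in the knockout and 0.037 in the overexpressor, and both Lpgat1 probe sets lie above 0 in the knockout and below 0 in the overexpressor.

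The means of some marker lists also lay apart between knockouts and their controls. The mean log2 value of the 8 adipocyte markers was 11.52 to 11.70 in knockouts and 11.41 to 11.50 in their controls, with 7 of 8 higher (median 0.17). Over all 7454 tested probe sets 4693 were higher in the knockout. Pparg, the master regulator of fat cells, was at 0.32 and Adipoq at 0.060. Lep was at 0.50 with overlapping groups, and Retn, the 1 lower marker, at -0.0052. The mean of the 4 tested B cell markers stood at 9.86 to 9.92 against 9.40 to 9.73, but 2 were higher and 2 lower (median -0.013). Ighm, the antibody heavy chain, was at 1.40, Pax5 at 0.086, Cd79b at -0.11 and Ms4a1 at -0.16. The gap in the mean thus rested on Ighm. The mean of the 4 tested mast cell markers stood lower, at 8.48 to 8.50 against 8.54 to 8.58, with 3 of 4 lower and 0 higher. The knockout and control ranges of the other 12 marker lists overlapped. In the overexpressor line, beside the lower Lpgat1, the mean of the mast cell markers stood at 9.04 to 9.20 against 9.24 to 9.31. The mean of 6 hepatocyte markers stood at 7.99 to 8.06 against 8.11 to 8.19, with 4 lower and 2 higher (median -0.042). Another 2 hepatocyte markers were too dim to be tested. Fibroblast and smooth muscle means differed by -0.42 and -0.40 with overlapping groups. All these list means were taken without subtracting array medians, and overexpressor 1 and knockout control 3 were the dimmest arrays of their lines. The part of array brightness in these gaps was not tested, nor was the part of any cell type in the members' values.

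The wider pathway was then read from 6 lists of genes around these enzymes. Of 156 listed genes, 84 had a probe set and 60 were tested. By limma 0 of 60 were called in either comparison. At an unadjusted p under 0.05 there were 7 of 60 in the overexpressor (1 higher, 6 lower) and 4 of 60 in the knockout (all higher). Over all tested probe sets the same count was 355 of 7454 (92 higher, 263 lower) and 297 of 7454 (259 higher, 38 lower). The share in the lists was thus above that of all tested probe sets in both comparisons, a difference that was not tested. The median change of the 60 was -0.053 in the overexpressor and 0.051 in the knockout, beside -0.072 and 0.042 over all tested probe sets. Of the 60, 38 were lower in the overexpressor and 36 higher in the knockout, beside 5240 and 4693 of all 7454 tested probe sets.

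Of the other secreted phospholipases A2 and their kin, 4 genes were tested. Pla2g2a, the group IIA enzyme of inflammation, read 339, 305 and 250 in knockouts and 275, 204 and 216 in controls (0.32), and -0.050 in overexpressors. Pla2r1, a receptor that binds secreted phospholipases, was at -0.18 in overexpressors and -0.10 in knockouts. Pla2g1b, the pancreatic enzyme, was at 0.064 and -0.0025. Oc90, an inner-ear protein with phospholipase-like domains, read 1235, 1244 and 1313 in overexpressors and 1662, 1565 and 1429 in controls (-0.29). Pla2g2c and Pla2g10 were dim.

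The list of other intracellular phospholipases A had 7 tested genes, with medians of 0.016 in overexpressors and 0.0035 in knockouts, and none had an unadjusted p under 0.05 in either comparison. Without overexpressor control 2 the overexpressor median was 0.14. Ddhd2, a lipase of the triglyceride and phospholipid kind, was at 0.30 in overexpressors and 0.038 in knockouts. Pnpla2, the adipose triglyceride lipase, was at 0.14 and 0.0035. Pla2g6, the calcium-independent enzyme, was at 0.087 and 0.26, and Pafah1b1, a subunit of intracellular platelet-activating factor acetylhydrolase, at -0.065 and 0.24. On the lower side were Pafah2, another intracellular acetylhydrolase (-0.14 in overexpressors and -0.0074 in knockouts), Pafah1b2, a further subunit (-0.056 and -0.057), and in knockouts Ddhd1 (0.016 and -0.047).

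The list nearest to Lpgat1, of acyltransferases and lysophospholipid breakdown, had 12 tested genes, of which 9 were lower in overexpressors (median -0.16) and 8 higher in knockouts (median 0.090). Most of all 7454 tested probe sets moved the same way (5240 lower in overexpressors, 4693 higher in knockouts), so nothing is read from these counts. Lpcat3, which re-acylates lysophosphatidylcholine, read 470, 508 and 506 in knockouts and 383, 449 and 382 in controls, without overlap (0.27), and -0.16 in overexpressors. Acsl4, which activates arachidonate, was at 0.27 in knockouts and -0.32 in overexpressors. Abhd5, the co-activator of triglyceride lipase, read 255, 447 and 324 in overexpressors and 393, 635 and 478 in controls (-0.52), with 0.21 in knockouts. Gpat4, a glycerol phosphate acyltransferase, was at -0.31 and -0.029, and Agpat1, which makes phosphatidic acid, at 0.21 and 0.13. Gpam, the mitochondrial glycerol phosphate acyltransferase, was at 0.060 in overexpressors and -0.14 in knockouts, and Lpcat1, another re-acylating enzyme, at -0.012 and -0.081.

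Of 19 tested eicosanoid genes, 9 were higher in overexpressors (median -0.0062) and 8 in knockouts (median -0.024); the overexpressor median was -0.092 without overexpressor control 3. Ptgds, a prostaglandin D synthase, read 299, 327 and 541 in overexpressors and 268, 256 and 260 in controls (0.47, limma adjusted p = 0.906). Ptges, which makes prostaglandin E2, was at 0.52 in overexpressors and 0.14 in knockouts. Ephx2, the soluble epoxide hydrolase, read 392, 487 and 508 against 558, 1083 and 683 in overexpressor controls (-0.66), and Ptgr1, which inactivates prostaglandins and leukotriene B4, was at -0.53. Ltc4s, the leukotriene C4 synthase, read 953, 1198 and 1232 in knockouts and 951, 943 and 740 in controls (0.35), without overlap. Ptges2, a further prostaglandin E synthase, was at 0.20 in knockouts and -0.0097 in overexpressors. On the lower side in knockouts, Ggt5, which cuts leukotriene C4, was at -0.38 and Ptgis, the prostacyclin synthase, at -0.31, both with overlapping groups; in overexpressors they were at -0.52 and -0.44. Ptgs2, the inducible cyclooxygenase, lay at or near the floor on most arrays.

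Among 8 tested receptors, Ptger3, for prostaglandin E2, had the smallest p of all 60 genes. It read 324, 616 and 567 in overexpressors and 657, 710 and 918 in controls, without overlap (-0.60, SE 0.20, limma adjusted p = 0.799). In the knockout line it read 291, 307 and 282 against 277, 259 and 223, also without overlap and in the other direction (0.19). Lpar1, a receptor for lysophosphatidic acid, was at -0.44 in overexpressors and -0.34 in knockouts. Ptgdr2, a receptor for prostaglandin D2, was at 0.22 and -0.16, Ptger1, a further prostaglandin E2 receptor, at 0.072 and 0.15, and Ptafr, the platelet-activating factor receptor, at -0.024 and 0.15. Of 10 tested annexins and regulators of cytosolic phospholipase A2, 8 were lower in overexpressors (median -0.061) and 9 higher in knockouts (median 0.12). Here too most of all 7454 tested probe sets moved the same way (5240 lower in overexpressors, 4693 higher in knockouts). Anxa2, a phospholipid-binding protein of membranes, read 4510, 4999 and 5217 in knockouts and 4350, 3852 and 3192 in controls (0.38) and was at -0.22 in overexpressors. Anxa6 was at -0.34 in overexpressors and 0.28 in knockouts. Anxa3 was at 0.30 in overexpressors and 0.00057 in knockouts, Anxa4 at 0.0025 and 0.14, and Mapk14, a kinase that phosphorylates cytosolic phospholipase A2, at -0.061 and -0.065.

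**Figure D3:**
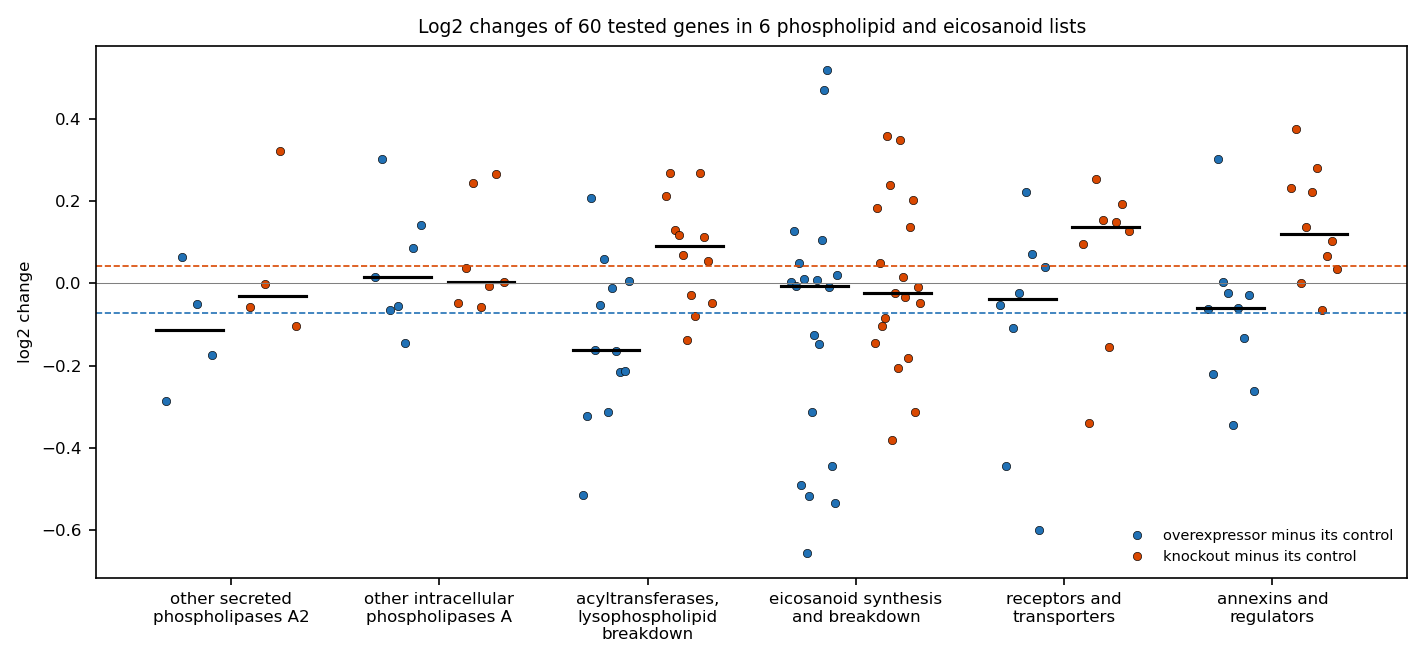
Log2 change (vertical axis) of the 60 tested genes in 6 lists, overexpressor in blue and knockout in orange, each against its own control; black bars are list medians and dashed lines the medians over all tested probe sets (-0.072 and 0.042). No gene was called by limma; the lowest list median is -0.16 (acyltransferases, overexpressor) and the highest 0.14 (receptors, knockout).

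The genes whose pattern was most like Pla2g12a were sought among 5703 tested genes, by Pearson's r with probe set 104343_f_at over 12 arrays after each line's mean was subtracted, as a description only. The closest were Get3 (0.946), which inserts tail-anchored proteins, Auh (0.940), an enzyme of leucine breakdown, Orm2 (0.925), a secreted acute-phase protein, Mrpl40 (0.923), of the mitochondrial ribosome, and Tmem50b (0.909). The gap between knockouts and controls was part of this likeness, since the line means alone were removed, so a gap in the same direction was fixed by the choice. For all 5 the knockouts lay above their controls, at changes from 0.30 (Tmem50b and Auh) to 0.66 (Orm2), smaller than that of Pla2g12a. Orm2 read 1210, 1412 and 1496 in knockouts and 866.9, 902 and 786 in controls. The arrays share their brightness: the array median itself had an r of 0.550 with Pla2g12a, and with array medians subtracted, a setting added after the data were seen, r ran from 0.845 (Auh) to 0.925 (Get3). The other Pla2g12a probe set had an r of 0.818.

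**Figure D4:**
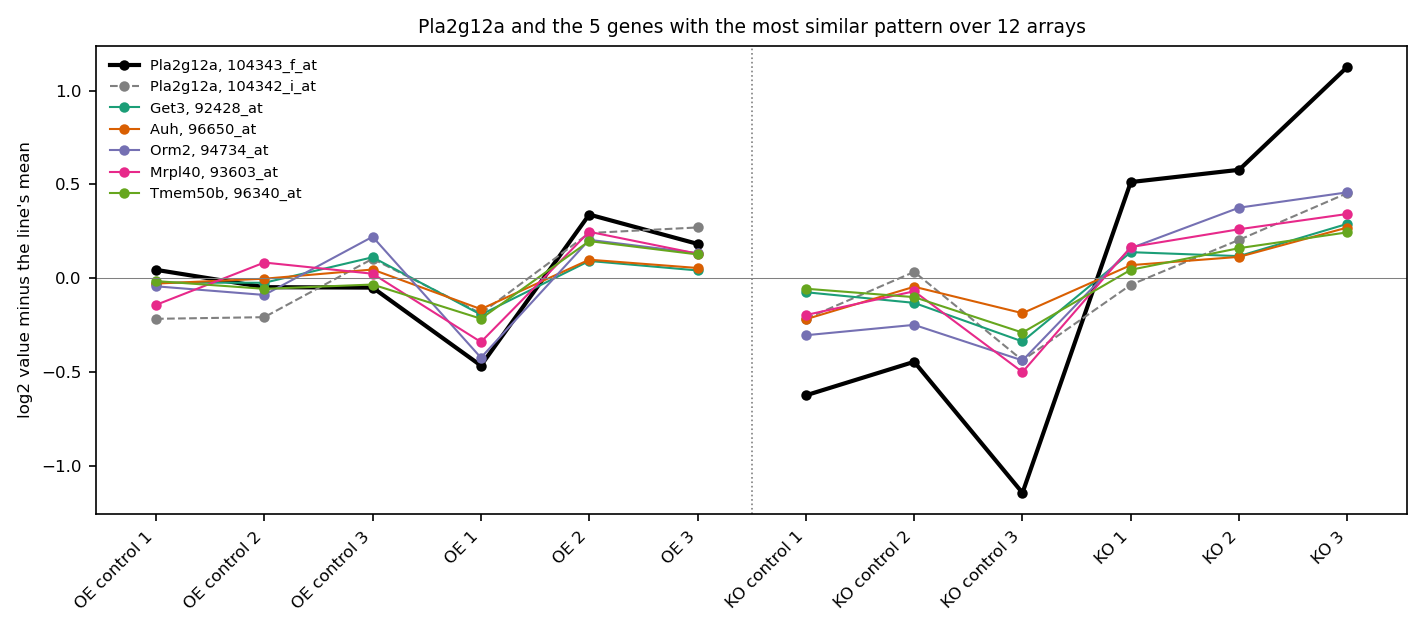
Log2 value minus its line's mean (vertical axis) on each of 12 arrays for both Pla2g12a probe sets and the 5 genes of most similar pattern; lines only join the points of a gene within a line of mice. All 7 lie below 0 on overexpressor 1, knockout control 3 is the lowest of the knockout line for 6 of them, and Pla2g12a 104343_f_at has the widest swing between knockouts and their controls.

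The genes beside Pla2g12a on chromosome 3 (order from the reference assembly GRCm38.p6) were read as well. Of the 10 nearest, 5 on each side, 4 had a probe set and 2 were tested. Gar1, of ribosomal RNA processing, read 915, 1001 and 750 in knockouts and 1052, 932 and 978 in controls (-0.15), and Rrh, an opsin, was at 0.095, both with overlapping groups. Casp6, a caspase on the other side, was dim and read 138, 120 and 163 against 134, 110 and 132. Cfi, a complement protease, lay at or near the floor on all arrays.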

How the data were processed

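Total RNA of perigonadal fat was hybridised to 12 Affymetrix arrays, per the labels' protocols. The authors deposited intensities, 1 per probe set and array; no source used here gives the summarising software or scaling. Before taking log2, 36.9 was added to each value, which is the 10th percentile over all deposited intensities. The 40% of probe sets with the lowest mean were left out and 7454 tested with limma 3.58.1 in R 4.3.3 (means of 4 groups, intensity trend, Benjamini-Hochberg adjustment, threshold 0.05), each mutant against its own control. The script was tested on simulated data. Figures used matplotlib 3.10.9 and Python 3.11.15.

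Symbols came from the platform annotation: 10833 probe sets had 1 symbol, 396 several and 1193 none. The probe set with the highest mean stood for a gene, except for members, shown in full. Members, lists and tests were chosen with earlier results of these arrays known. Named were all members, per pathway list up to 2 genes per direction and comparison with the smallest p (all calls too), the 5 most similar patterns and the neighbours of Pla2g12a. The number of arrays limits the precision; 3 against 3 mice cannot go below an exact two-sided p of 0.1.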

Additional observations from a re-analysis of the deposited data

Results flagged for a closer look

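Of 68 probe sets looked at, 2, of 2 genes, had every mutant to one side of its controls in one line and to the opposite side in the other; the difference between the lines was not tested, and 0.631% of all tested probe sets showed this pattern. Lpgat1 (104260_at) was at -0.51 in the overexpressor and 0.59 in the knockout, a difference of -1.10; it may have been chosen on these same values, so nothing is read from its pattern. Ptger3 was at -0.60 and 0.19, a difference of -0.79. Groups of 3 arrays are too small to single out an array.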

How the results depend on the processing

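Values were recomputed under up to 21 alternatives (20 for Pla2g4a and 17 for the 3 dim probe sets, which lie outside the fit), 12 of which left out 1 array. The count of called members in the knockout, 1 (Pla2g12a), was 0 without a filter on dim probe sets, 0 on the knockout line's own 6 arrays and 0 with the replicate number as a block, and ran from 0 to 1 when single arrays were left out; the cause was not tested. The log2 change of Pla2g12a itself kept its direction in all 21, from 1.28 to 1.62 with single arrays left out and from 1.31 (25th percentile as the constant) to 1.64 (constant of 1). The counts of called members in the overexpressor and of called pathway genes in both comparisons were 0 in all 21. Leaving out single arrays moved Pla2g12a in the overexpressor from -0.12 to 0.28 and Pla2g4a there from -0.16 to 0.035, both changing sign. Both Lpgat1 probe sets kept their direction in both lines in all 21. With the replicate block 0 of all 7454 tested probe sets were called in the knockout, against 9 without it, so the loss was not particular to Pla2g12a. No other member or pathway gene was called with or without the block. Arrays with equal replicate numbers did not deviate together (correlations -0.35 to 0.020), so the numbers were not taken to pair mice. The constant added before the log damps the changes of dim probe sets.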
